A study of Mus with 4 samples.

Results

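Complement genes were examined in cultured podocytes carrying a virus for the active form of the transcription factor OASIS or for a control protein. The genes were 8 components and regulators, namely C2, C3, C4b, Cfb, Cfd, Cfi, Cd55 and Serping1. Every probe that the deposited signal table names with one of these symbols was taken, whatever its value. This gave 15 probes of 56605 on the array and 8 of 26893 named genes.

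The samples came from an immortalized murine podocyte line that was differentiated for 10 to 14 days in the absence of interferon-γ. Each sample received lentivirus for 24 h at a multiplicity of infection between 200 and 500, and its total RNA was taken 48 h after the virus was added. In 2 samples, labelled Venus, the virus carried the Venus fluorescent protein, and in 2 samples, labelled OASIS, it carried the N-terminal, active fragment of OASIS, the product of Creb3l1. All samples therefore carried a lentivirus, in a pCSII-EF plasmid whose EF promoter is active in most cell types, and cells without virus were not analysed here. The comparison asks which complement genes differ in RNA level between podocytes given the 2 vectors. The samples are of 1 line and are numbered within each group, but nothing says that they were separate cultures, so that the p-values measure only the spread between these samples, which may be technical.

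Complement is a cascade of plasma proteins that is started by antibodies, by sugars on microbes or by spontaneous turnover, and that coats targets for uptake, releases attractants and opens pores in membranes. All routes meet at C3, which is cut by convertases built from C4b and C2 in the classical and lectin routes or from C3b and factor B in the alternative route. Inhibitors in plasma and on host cells limit this process. In the kidney, the glomerulus is a known site of complement injury, and podocytes make some complement proteins and inhibitors of their own.

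The 4 arrays shared 1 slide and 1 scan. Over the tested probes, arrays of the same group correlated at 0.9946 and 0.9969, and arrays of different groups at 0.9732 to 0.9783. The probe for Creb3l1, the gene of OASIS, had normalized log2 intensities of 0.71 and 0.72 with Venus and of 0.61 and 0.49 with OASIS. It was therefore not higher with the OASIS vector. Its place relative to the N-terminal fragment is not given in the sources used here, so that this probe does not check the labels, and the directions below rest on the labels. Of 14 podocyte markers, 10 were well above background on all 4 arrays, among them Synpo, Podxl and Wt1. Nphs1 was above background on 1 array, and Ptpro and Tcf21 were above background on 0 arrays. Of the 10 markers tested, Wt1 (log2 fold change 4.62, limma adjusted p = 0.00215) and Cd2ap (1.09, limma adjusted p = 0.00832) rose past the limits given below. None fell past them. Across all genes tested, 6.21% rose and 1.85% fell. Magi2 was at -0.55 (limma adjusted p = 0.0308), short of 2-fold.

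Values are given below as normalized log2 intensity, that is, the log2 of a probe's corrected intensity divided by the 75th percentile of that array, in the order Venus 1, Venus 2, OASIS 1 and OASIS 2. Different probes bind with different strength, so that a level of one probe says nothing about its level relative to another. A difference was called when the fold was over 2 in either direction and the adjusted p was under 0.1, the limits of the study's methods. Testing required a signal well above background on each array of the Venus pair, of the OASIS pair or of both. Of the 15 complement probes, 6 were tested, for C2, C3, C4b and Cfb. Of the other 9, 7 were well above background on 0 arrays and 2 on some arrays.

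No complement member passed the threshold. Of the 6 probes tested, 0 were called with limma, against 8.36% of the 31598 probes tested on the array. By gene, with each gene read by its brightest probe, the count was 0 of 4, against 8.06% of 16318 genes. The methods' t-test uses the same folds, all of them short of 2, so that it could call none of the 6 probes. At an unadjusted p under 0.05, limma took 2 of 6 probes, and across all probes it took 40.7%. The same 2 probes, of C2 and Cfb, had an adjusted p under 0.1 with a fold short of 2, and 36.7% of all probes tested had an adjusted p under 0.1 whatever their fold. The groups did not overlap for 4 of the 6 probes, against 68.0% of all probes tested. These shares rest on 6 probes and 4 genes, and none of them sets the members apart from the array. The median log2 fold change of the 6 probes was -0.13, and that of all probes tested was -0.069.

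**Figure D1:**
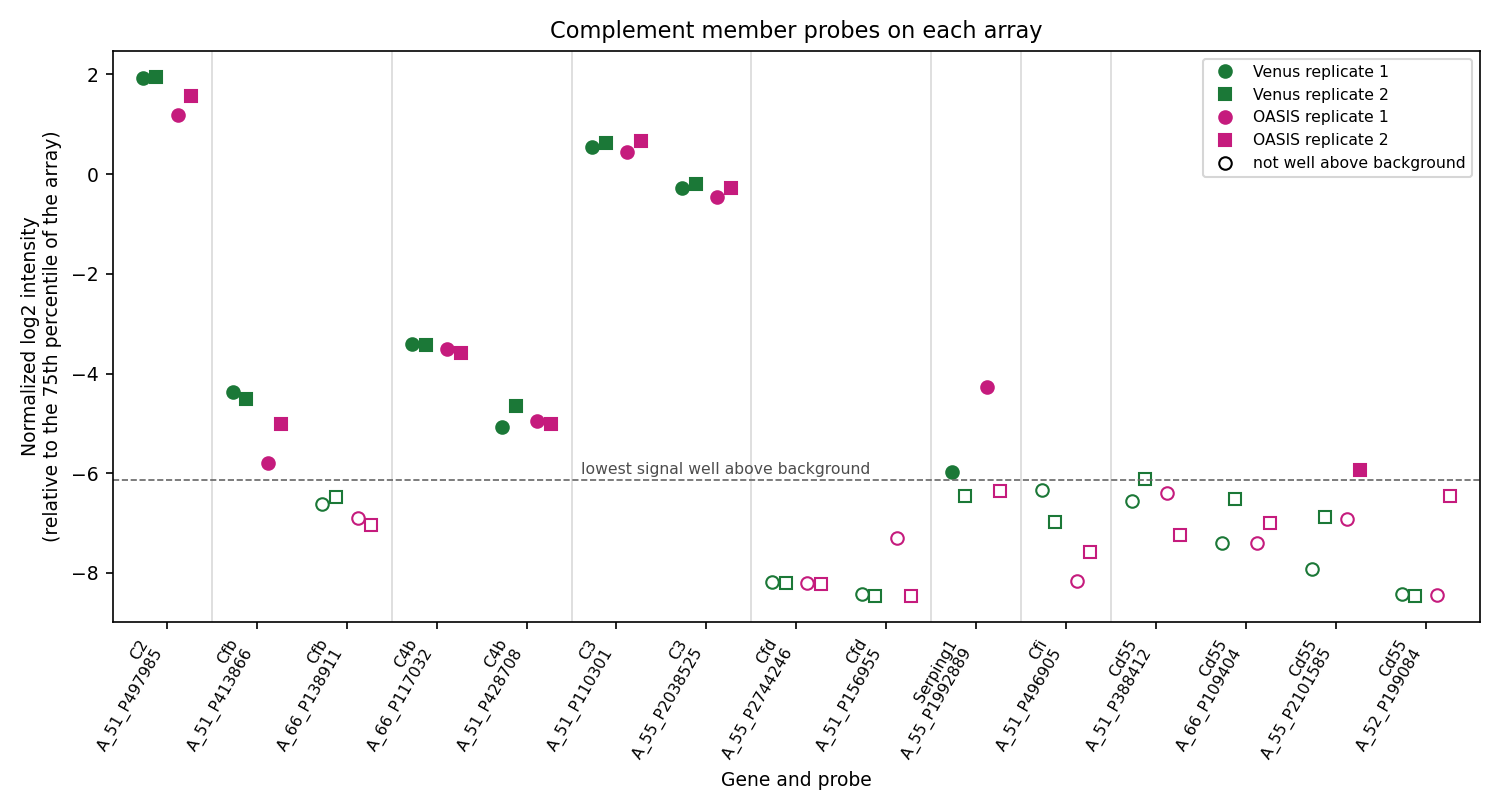
Normalized log2 intensity (y axis) of the 15 probes of the 8 complement genes (x axis) on the 2 Venus arrays (green) and the 2 OASIS arrays (magenta), with open symbols where the probe was not well above background and a dashed line at the mean over arrays of the lowest signal that was. C2 lies between 1.19 and 1.95 with both OASIS arrays below both Venus arrays, C3 and C4b lie close together in both groups, and Cd55, Cfd and Cfi lie at or under the line apart from 1 Cd55 probe on 1 OASIS array.

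Among the proteases of the convertases, C2 read lower on both OASIS arrays but was not called. C2 is the serine protease that, bound to C4b, forms the C3 convertase of the classical and lectin routes, and its gene lies on chromosome 17 in band qB1, in the class III region of the major histocompatibility complex. Its single probe, A_51_P497985, read 1.93, 1.95, 1.19 and 1.57. On the authors' scaled intensity scale this was 2460, 2620, 1440 and 2010. Both OASIS arrays lay below both Venus arrays, and OASIS 1 was the lowest of the 4. The group means were 1.94 ± 0.019 (SD, n = 2) for Venus and 1.38 ± 0.27 (SD, n = 2) for OASIS, so that nearly all of the spread was within the OASIS pair. The log2 fold change was -0.56 (SE 0.16, 95% interval -0.98 to -0.14, limma adjusted p = 0.0673), which is 1.47-fold lower and short of the 2-fold limit. Without OASIS 1 the log2 fold change was -0.37, and without OASIS 2 it was -0.75. Without Venus 1 it was -0.57, and without Venus 2 it was -0.55. With the methods' t-test on all 4 arrays the adjusted p was 0.239. In RNA from a whole culture, fewer cells of a type and less RNA per cell cannot be told apart.

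Cfb, which encodes factor B, the protease of the alternative route convertase, lies beside C2 in the same band. Its probe for transcript variant 1, A_51_P413866, read -4.38, -4.52, -5.80 and -5.01, and it was well above background on all 4 arrays. Again both OASIS arrays lay below both Venus arrays, and OASIS 1 was the lowest. The group means were -4.45 ± 0.099 (SD, n = 2) and -5.40 ± 0.56 (SD, n = 2). The log2 fold change was -0.95 (SE 0.28, 95% interval -1.69 to -0.21, limma adjusted p = 0.0719), or 1.94-fold lower. The fold was thus just short of the limit, and its side depended on the arrays used. Without OASIS 2 the log2 fold change was -1.35, past 2-fold. Without Venus 2 it was -1.02, also past 2-fold, and without Venus 1 it was -0.88. Without OASIS 1 it was -0.56. Each of these fits leaves 1 array in a group, whose spread is then not measured, so that no p-value is given. The signal was dim, with scaled intensities of 31.1, 29.5, 11.4 and 21.0. With normexp background correction the log2 fold change was -0.35 (limma adjusted p = 0.0533). The second probe, A_66_P138911 for transcript variant 2, read -6.63, -6.47, -6.90 and -7.03. It was not well above background on any array and was not tested.

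Cfd encodes factor D, the protease that cuts factor B, and lies on chromosome 10 in band qC1. Its probe A_55_P2744246 read -8.17, -8.21, -8.20 and -8.22. Its other probe, A_51_P156955, read -8.42, -8.46, -7.31 and -8.46. Neither was well above background on any array, where the lowest signal that counted as such was -6.10 to -6.15, so that no difference in Cfd could be measured at this signal.

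The thioester components C3 and C4b did not pass the threshold. C3 is the central protein of the cascade, and its cleaved form binds covalently to targets. On chromosome 17 it lies in band qD, apart from the other members on that chromosome. Its probe A_51_P110301 read 0.54, 0.63, 0.43 and 0.67. The lowest and the highest of these values were both OASIS arrays, so that the groups overlapped. The log2 fold change was -0.032 (SE 0.13, 95% interval -0.37 to 0.30, limma adjusted p = 0.875). The second C3 probe, A_55_P2038525, read -0.27, -0.20, -0.47 and -0.29. Its groups did not overlap, but the gap between them was 0.018, and the log2 fold change was -0.14 (SE 0.12, 95% interval -0.45 to 0.16, limma adjusted p = 0.409). Both intervals leave out a 2-fold difference in either direction, and the difference itself could not be told from 0.

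C4b, the fourth component, is cut to form the base of the classical convertase, and its gene lies in band qB1 with C2 and Cfb. The probe A_66_P117032 read -3.41, -3.44, -3.50 and -3.59. Both OASIS arrays lay below both Venus arrays by a gap of 0.063. The log2 fold change was -0.12 (SE 0.10, 95% interval -0.39 to 0.15, limma adjusted p = 0.423). The second probe, A_51_P428708, read -5.08, -4.65, -4.95 and -5.02, and its groups overlapped, with a log2 fold change of -0.12 (SE 0.17, 95% interval -0.57 to 0.33, limma adjusted p = 0.649). C4a is a near-identical copy of C4b in the same region, and signal at the C4b probes may come from either gene. The probe named for C4a was not well above background on any array.

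The regulators among the members, Cfi, Cd55 and Serping1, had no probe that met the filter for testing. Cfi encodes factor I, the plasma protease that inactivates C3b and C4b, and its gene lies on chromosome 3 in band qG3. Its probe A_51_P496905 read -6.34, -6.97, -8.16 and -7.59. Both OASIS arrays lay below both Venus arrays, but no array was well above background, so that these values have no measured order and no fold is given.

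Cd55, the membrane protein that speeds the decay of both convertases, lies on chromosome 1 in band qE4 and has 4 probes. None of them met the filter for testing. The probe A_55_P2101585 read -7.92, -6.89, -6.91 and -5.93 and was well above background on OASIS 2 alone. The other 3 probes were not well above background on any array and ranged from -8.46 to -6.11. For A_66_P109404 and A_51_P388412 the groups overlapped, and for A_52_P199084 the single value that stood apart was -6.45 on OASIS 2, below the background limit. The mouse genome also holds Cd55b, a close copy of Cd55, and its probe was not well above background on any array.

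Serping1, the gene of C1 inhibitor, which blocks C1r, C1s and the MASP proteases, lies on chromosome 2 in band qD. Its single probe, A_55_P1992889, read -5.97, -6.46, -4.27 and -6.35. On the scaled intensity scale these were 10.3, 7.66, 32.9 and 8.30. OASIS 1 stood above the other 3 arrays, which lay close to the background limit, and OASIS 2 lay between the Venus arrays. The probe was well above background on Venus 1 and OASIS 1 only and was not tested. The 2 OASIS arrays differed by 2.08 on the log2 scale. With OASIS 2 left out, the probe met the filter at a log2 fold change of 1.95, and with Venus 2 left out at 0.66. Each of these fits leaves 1 array in a group, so that the spread of that group is not measured. Without the filter on dim probes and with all 4 arrays it was 0.91 (SE 0.85, limma adjusted p = 0.638). The direction for Serping1 thus rests on 1 array.

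In the deposited annotation all 8 members carry the KEGG pathway of complement and coagulation cascades, which restates their choice. An extracellular location is listed for 7 of 8, all but the membrane protein Cd55. Proteolysis is listed for 4, namely C2, Cfb, Cfd and Cfi, and 4 members lie on chromosome 17, namely C2, C3, C4b and Cfb. Of the 4 genes on chromosome 17, all had a tested probe, while none of the 4 genes on other chromosomes did.

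**Figure D2:**
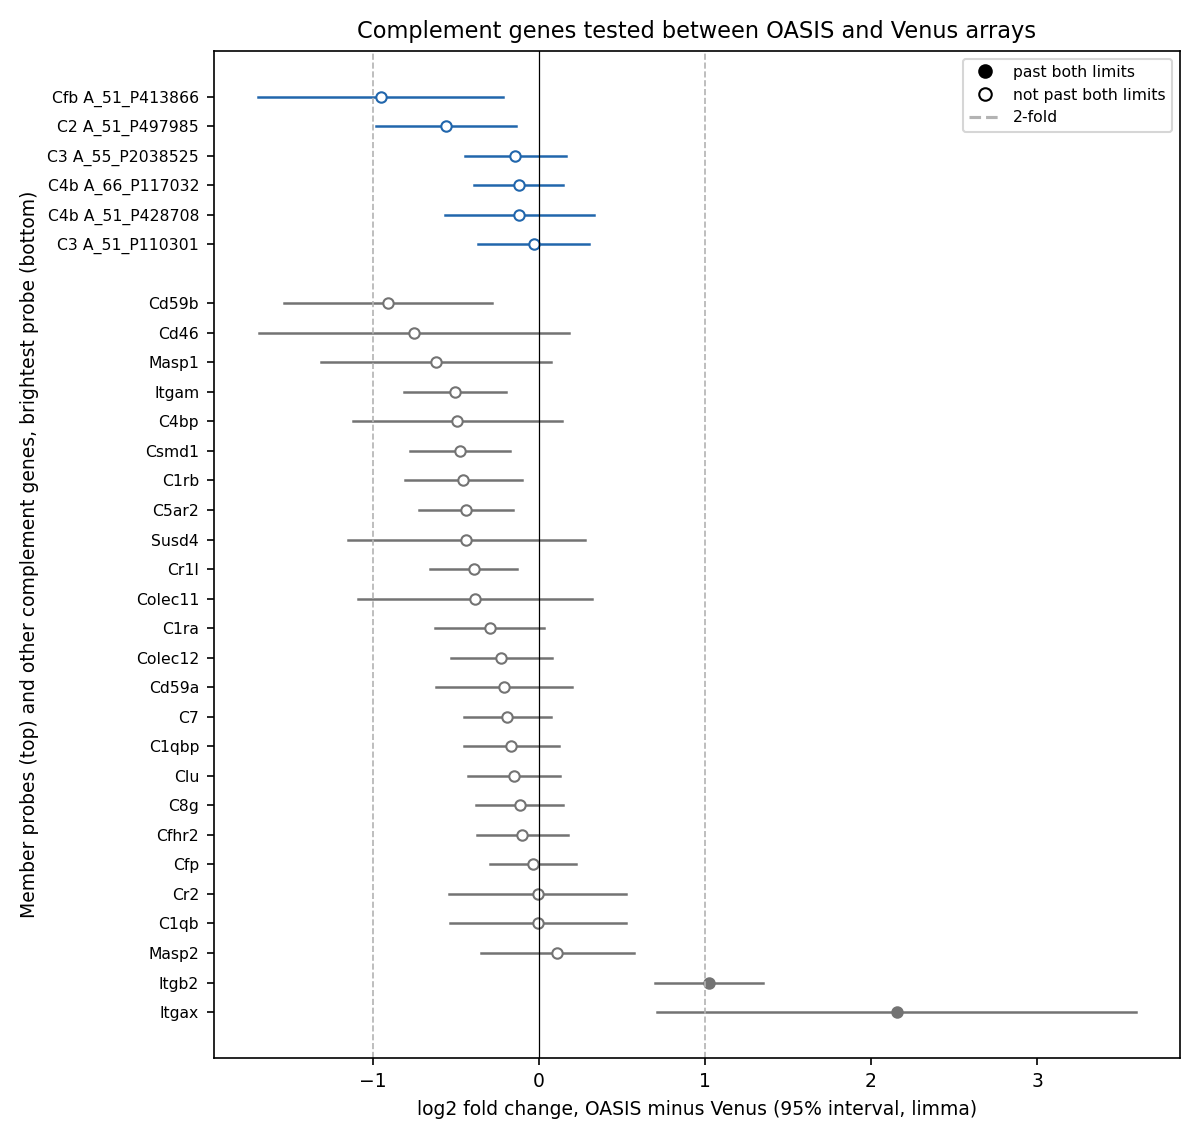
Log2 fold change, OASIS minus Venus, with its 95% limma interval (x axis), for the 6 tested probes of complement members (blue, top) and the brightest tested probe of 25 of the other complement genes (grey, bottom). Filled points passed both limits, dashed lines mark 2-fold, and only Itgb2 and Itgax are filled, both to the right.

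The rest of the complement system was read from a list of 54 genes, of which 50 were on the array. Of these, 26 had a tested probe and 21 were not well above background on any array by their brightest probe. By the brightest probe, 2 of the 26 were called higher, 1 of them (Itgax) with both Venus arrays within background, and 0 lower. Across all genes tested, 6.21% rose and 1.85% fell. At an unadjusted p under 0.05 limma took 9 of the 26, against 40.7% of all probes tested. The fitted value was below 0 for 23 of 26, and the median log2 fold change was -0.26, while 56.09% of all genes tested were below 0 with a median of -0.056. An adjusted p under 0.1 with a lower level was seen for 7 of 26, and for 18.13% of all genes.

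Both genes called higher encode chains of complement receptors of leukocytes. Itgb2, the β2 chain shared by complement receptors 3 and 4, read -4.21, -3.98, -3.07 and -3.07. Both OASIS arrays were higher than both Venus arrays, at a log2 fold change of 1.02 (SE 0.12, limma adjusted p = 0.0108). Without Venus 1 it was 0.91, short of 2-fold, and on all 4 arrays Itgb2 was not called with normexp or with the methods' t-test. Itgax, the αX chain of complement receptor 4, read -6.54, -7.84, -4.54 and -5.53. Both Venus arrays lay within background for it, so that it entered the test through the OASIS arrays alone and is given as at least 2.13-fold higher, with a limma adjusted p of 0.0524 that rests on Venus values below background. It was not called with normexp or without the filter, and it was not tested where all 4 arrays had to be above background, which left Itgb2 as the 1 gene called. For such a bound, the dim group is set to the array's lowest signal that counts as above background. The call was lost without Venus 2 (limma adjusted p = 0.127) and without OASIS 1 (limma adjusted p = 0.158). Itgam, the αM chain of complement receptor 3, had a log2 fold change of -0.51 by its brightest probe (limma adjusted p = 0.043), short of 2-fold. By its other tested probe, A_55_P1977926, it was at -0.0056 (limma adjusted p = 0.986), and the groups overlapped.

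Itgb2, Itgax and Itgam are also genes of myeloid cells, so that leukocyte markers were read beside them. Of 11 markers on the array, 9 were tested and 0 were called, against 8.06% of all genes tested, with a median log2 fold change of 0.065. An unadjusted limma p under 0.05 was seen for 3 of the 9, against 40.7% of all probes tested. Ptprc, Itgam, Csf1r, Cd14 and Cd68 were well above background on all 4 arrays, and Adgre1 and Tyrobp on none. The summed level of the 11 markers, in units of the 75th percentile of the array, was 20.9 to 21.6 on the Venus arrays and 16.9 to 17.3 on the OASIS arrays. Such a sum is led by the probes that read brightest, and without Itgam it was 6.67 and 7.14 with Venus and 6.20 and 7.72 with OASIS, so that the groups overlapped. Csf1r, the receptor for macrophage colony-stimulating factor, was at 0.74 (limma adjusted p = 0.072). The part of such cells in the values for Itgb2 and Itgax was not tested. Among 7 endothelial markers only Pecam1 was tested, with a log2 fold change of 0.26 (limma adjusted p = 0.161). Of 8 tubular markers, 4 were tested, with 1 called higher and 0 lower, against 6.21% and 1.85% of all genes tested. The 1 called was Lrp2, at a log2 fold change of 1.62 (limma adjusted p = 0.0148).

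Inhibitors of complement that lie outside the members were described after their values had been seen. Cd59b, which blocks the membrane pore, read -3.60, -4.14, -4.59 and -4.97, and both OASIS arrays were below both Venus arrays. Its log2 fold change was -0.91 (SE 0.24, limma adjusted p = 0.0556), short of the 2-fold limit with all 4 arrays. It passed that limit without Venus 2 (-1.18) and without OASIS 1 (-1.10), but not without Venus 1 (-0.64) or without OASIS 2 (-0.72). The near copy Cd59a was at -0.21 by its brightest probe (limma adjusted p = 0.368) and at -0.54 by its other probe (limma adjusted p = 0.0316). Clu, a fluid-phase inhibitor of the pore, was at -0.15 (limma adjusted p = 0.340). Cr1l, a membrane regulator, was at -0.39 by the probe that represents it (limma adjusted p = 0.0511). Its other tested probes were at -0.49 (limma adjusted p = 0.0326) and at -0.33 (limma adjusted p = 0.292), all short of 2-fold.

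For 2 genes a probe was called that was not the brightest, so that the count by brightest probe hides it. Probes of other genes differed without a call. Masp2, for example, was at 0.11 by its brightest probe (limma adjusted p = 0.681) and at -0.57 by its other probe (limma adjusted p = 0.0312). Over the 39 tested probes of this list, 5 were called, 2 higher and 3 lower, against 8.36% of all probes tested in either direction. Cd46, a membrane cofactor for factor I, had a dim probe, A_55_P2058230, that read -5.61, -5.52, -8.20 and -7.52, with both OASIS arrays within background. It was at least 1.49-fold lower, a bound short of 2-fold, and its call (limma adjusted p = 0.00868) rests on OASIS values below background. The brightest Cd46 probe had a log2 fold change of -0.75 (limma adjusted p = 0.185). Masp1, the gene of lectin route proteases, had 5 tested probes. Of these, A_52_P216226 read -5.33, -4.96, -6.38 and -6.06, with OASIS 1 within background. It was called at a log2 fold change of -1.07 (limma adjusted p = 0.0229), which rests in part on that value. A_52_P54274 was called at -1.16 (limma adjusted p = 0.041). The first lost its call without Venus 2 (-0.89) and without OASIS 1 (-0.91), and the second without Venus 1, Venus 2 or OASIS 1. The brightest Masp1 probe was at -0.62 (limma adjusted p = 0.154), A_55_P2729553 was at -0.91 (limma adjusted p = 0.0397), and A_51_P472879 was at -0.14 (limma adjusted p = 0.769). Several products are known for Masp1, and which of them each probe reads is not given in the sources used here.

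Both C2 and Cfb were lower on OASIS 1 than on OASIS 2. For C2 the OASIS arrays differed by -0.38 and for Cfb by -0.79, while the median of this difference was 0.043 over all tested probes. The median absolute difference between the OASIS arrays was 0.17 over all tested probes and 0.21 over the 6 member probes. C3 had -0.23 and -0.18 by its 2 probes, and C4b had 0.068 and 0.089. The Venus arrays were closer, with a median absolute difference of 0.081 over the 6 probes, against 0.11 over all probes tested.

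C2 and Cfb are known to respond to interferons in many cells, so that a list of 25 interferon-stimulated genes was read beside them. Of these, 18 fell and 0 rose, against 1.85% and 6.21% of all genes tested, and the median log2 fold change was -1.66. All 25 were lower on OASIS 1 than on OASIS 2, with a median of OASIS 1 minus OASIS 2 of -1.61, and the median of Venus 1 minus Venus 2 was -0.43. Isg15 read 5.98, 6.41, 3.63 and 5.24, and Irf7 read 4.47, 5.02, 1.99 and 3.61. Each placed the 4 arrays in the order Venus 2, Venus 1, OASIS 2 and OASIS 1, from high to low. This order was held by 24 of the 25 genes, by 2 of the 6 member probes, namely C2 and the C3 probe A_55_P2038525, and by 10.6% of all probes tested. Cfb did not hold it. For C2 the Venus arrays differed by only 0.026, and 4 arrays are too few to compare patterns between genes. The count of 18 became 10 without OASIS 1, 24 without OASIS 2, 2 without Venus 1 and 0 without Venus 2. Whether the interferon-stimulated genes have a part in the values of C2 and Cfb was not tested.

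**Figure D3:**
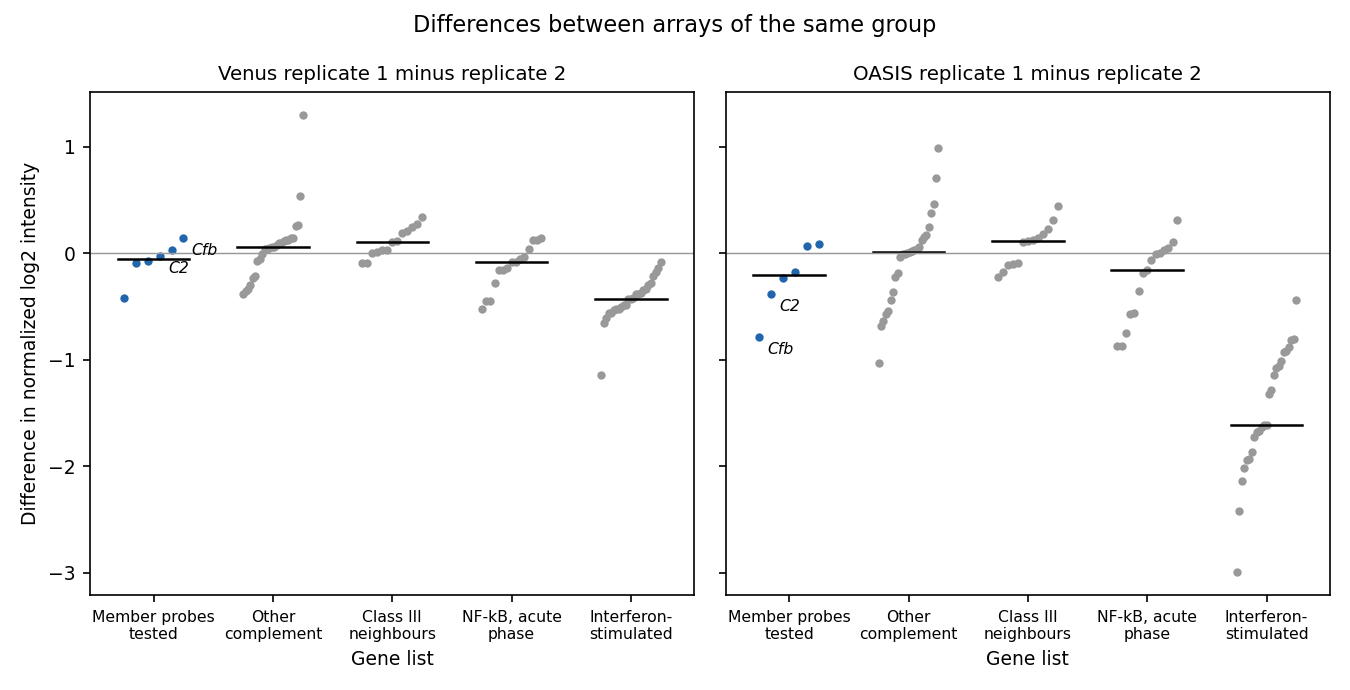
Difference in normalized log2 intensity between the arrays of a group (y axis), replicate 1 minus replicate 2, for Venus (left panel) and OASIS (right panel). Points are the 6 tested member probes (blue) and the tested genes of 4 lists (grey), bars are medians, and on the OASIS arrays C2 (-0.38) and Cfb (-0.79) lie below 0, as do all 25 interferon-stimulated genes.

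NF-κB is a known regulator of C3 and Cfb, and a list of 18 genes of NF-κB signalling and the acute phase was read as well. Of the 15 tested, 2 were called lower and 0 higher, with a median log2 fold change of -0.39. Across all genes tested, 1.85% were called lower and 6.21% higher, with a median of -0.056. Ccl2, a monocyte attractant, fell at a log2 fold change of -1.16 (limma adjusted p = 0.0696). Icam1, an adhesion molecule, had both OASIS arrays within background and was at least 1.48-fold lower, a bound short of 2-fold, so that its call (limma adjusted p = 0.0811) rests on values below background. With a filter on all 4 arrays the count was 1, namely Ccl2. Without OASIS 1, Venus 1 or Venus 2 the count was 0, and without OASIS 2 it was 3. The classical acute phase genes Hp and Saa3 did not meet the filter for testing, and Lcn2 was at -0.19 (limma adjusted p = 0.266).

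The neighbours of C2, Cfb and C4b in the class III region were read to see whether the band as a whole differed. Of 13 tested, 0 were called with limma, against 8.06% of all genes tested. An unadjusted limma p under 0.05 was seen for 5 of the 13, against 40.7% of all probes tested. The methods' t-test uses the same folds, all of them short of 2, so that it could call none of the 13. The median log2 fold change was 0.020, with a range from -0.43 for Zbtb12 to 0.40 for Dxo. Skiv2l, which lies close to Cfb, was at 0.15 (limma adjusted p = 0.363). The median of OASIS 1 minus OASIS 2 over these neighbours was 0.12, of the opposite sign to that of C2 and Cfb.

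**Figure D4:**
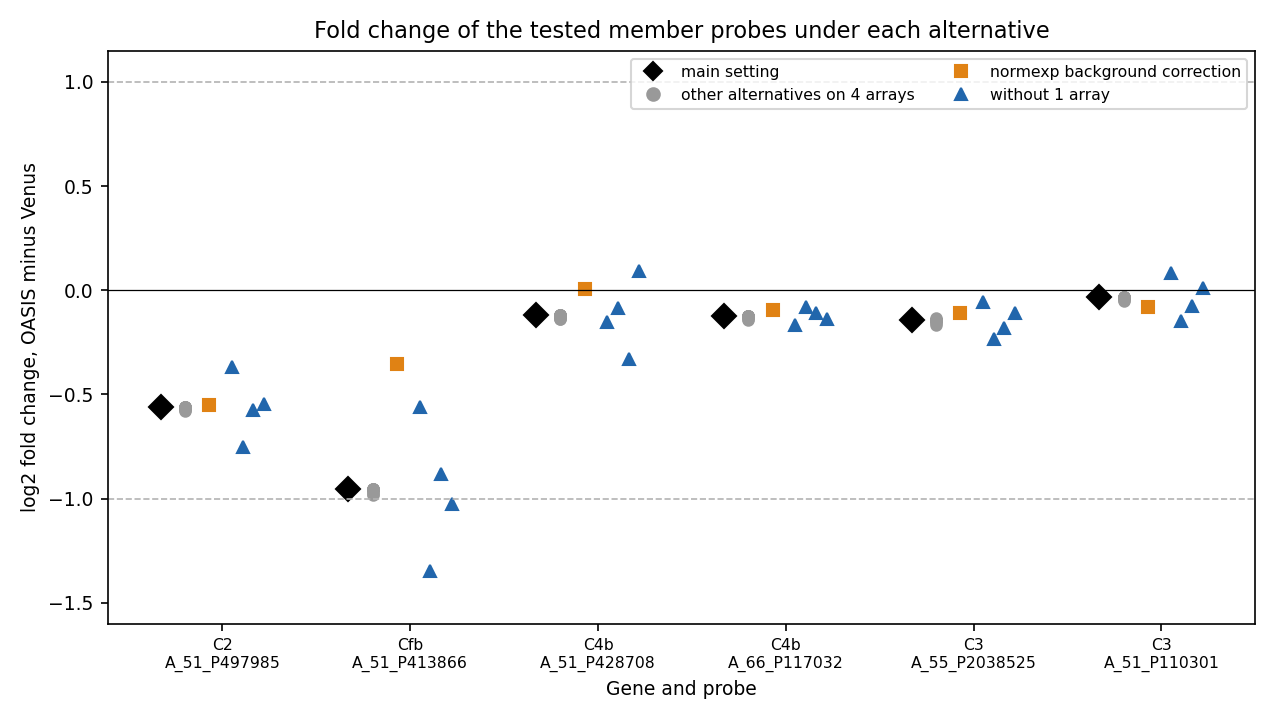
Log2 fold change, OASIS minus Venus (y axis), of the 6 tested member probes (x axis) with the reported processing (black), with normexp background correction (orange), with the other alternatives on all 4 arrays (grey) and with 1 array left out (blue). Dashed lines mark 2-fold, and only Cfb with 1 array left out goes past it, at -1.35 without OASIS 2 and at -1.02 without Venus 2.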

How the data were processed

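Total RNA of 4 samples was labelled with Cy3 and hybridised to 1-colour Agilent mouse arrays. The authors deposited scanner output, in which background had been subtracted from each intensity by Agilent Feature Extraction (version 12.1.0.3). A second deposited file gave, spot by spot, a scaled intensity and a detection score, with gene symbols, bands and pathway names. Control and outlier spots were left out, each corrected intensity was divided by the array's 75th percentile, and log2 was taken. A probe was well above background when at least 0.5 of its spots were. In R (version 4.3.3), with the packages data.table (version 1.17.8) and limma (version 3.58.1), 31598 probes were fitted with Benjamini-Hochberg adjustment over all of them. The fit was tested on simulated data. With 2 arrays against 2, an exact permutation test cannot go below p = 0.333 two-sided and was not used.

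All 8 members are named with every probe, and of the other lists (other complement, interferon-stimulated, NF-κB and acute phase, class III neighbours, and podocyte, leukocyte, endothelial and tubular markers) the genes past the threshold and defining genes by level. Further genes were named after their values were seen. Values of some genes on these lists are not reported here. Members and lists were chosen with earlier results of these data known. Alternatives covered scaling, normexp on the median spot signal (offset 50), the authors' scaled values, the filter, outlier spots, the probe that represents a gene, the methods' t-test, an intensity trend, an adjusted p under 0.05, the replicate block and each array left out. Symbols and bands are those of the deposited table. Sequences and coordinates of probes were not used here. With an array left out, a group holds a single array, so that p-values and calls of those fits rest on the spread of the other group alone. Precision is limited by the number of arrays.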

Additional observations from a re-analysis of the deposited data

How the results depend on the processing

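The 6 member probes were followed under 15 alternatives, and 85 of the 90 comparisons kept their direction and their side of the threshold. Changing only the adjusted p limit, the filter, the test, the intensity trend or the block left each fold as it was. With each fold short of 2, those alternatives could change neither the direction nor the side. The log2 fold change of C3 A_51_P110301 ranged from -0.15 to 0.084 with an array left out, above 0 without OASIS 1 (0.084) and without Venus 2 (0.012). That of C4b A_51_P428708 ranged from -0.33 to 0.093 with an array left out, above 0 without Venus 2, and was 0.0052 with normexp. Member probes and member genes called were 0 under each alternative on all 4 arrays. Without OASIS 2, Cfb (-1.35) and Serping1 (1.95) were past 2-fold, in a fit whose OASIS group is 1 array. On all 4 arrays the adjusted p of C2 ranged from 0.013 (limma with normexp) to 0.239 (the methods' t-test). That of Cfb ranged from 0.0478 (limma with an intensity trend) to 0.286 (the methods' t-test). The replicate numbers of the labels are shared numbers only, and replicates 1 deviated together at r = 0.259. With the replicate block, C2 had a limma adjusted p of 0.0502 and Cfb of 0.0653, at unchanged folds short of 2, so that no member could be called. All probes called were 1222 with normexp and 726 with the t-test, and all genes 789 and 400, against 2641 and 1316. Interferon-stimulated genes called lower were 4 at an adjusted p under 0.05, 0 without the filter, 0 with the t-test and 0 to 24 with an array left out. NF-κB and acute phase genes called lower were 0 at an adjusted p under 0.05, without the filter and with the t-test, 1 with the authors' values, normexp, quantile normalization or a filter on all arrays, and 0 to 3 with an array left out. Other complement genes called higher were 1 at an adjusted p under 0.05 or with a filter on all arrays, 0 with normexp or the t-test, and 1 to 3 with an array left out. Other complement genes called lower were 0 to 1 with an array left out, 1 each without OASIS 1 or Venus 2 (Cd59b) and without OASIS 2 (Cd46). What caused such shifts was not tested. For the 4 members with no tested probe, signal near background limits what can be measured.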
